A study of Mus musculus with 6 samples.

Results

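ATF4 and the genes that supply cells with amino acids were compared between CT26 cells with a guide against Cdk10 and CT26 cells with a control guide. The set holds 38 gene symbols, chosen by name from knowledge of the pathway and with earlier results of these data known. Contrasts of the set with all genes tested are therefore descriptions. It covers ATF4 and related stress transcription factors, their feedback and effector genes, and amino acid transporters. Enzymes of serine, folate, asparagine, proline, alanine and cysteine metabolism complete the set. All 38 were found among the 57010 identifiers of the deposited count table. The cells were CT26, a mouse colon carcinoma line, profiled by RNA sequencing of total RNA. The sgCdk10 group held 3 libraries from cells in which Cdk10, which encodes cyclin-dependent kinase 10, was targeted, and the sgControl group held 3 libraries from cells with a control guide. The sources used here do not give guide sequences, the time after editing or whether a line is a clone or a pool.

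ATF4 is the main transcription factor of the integrated stress response. When kinases phosphorylate the translation initiation factor eIF2, most protein synthesis slows while the Atf4 mRNA is translated more, and the ATF4 protein pairs with a C/EBP family partner on composite DNA elements of its target genes. Those targets import amino acids, make serine, asparagine and proline, charge mitochondrial folates with carbon units, and feed back on the response itself. Tumour cells, which take up and make large amounts of amino acids, often depend on this programme.

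Of the 38 genes, 34 passed the filter on low counts and were tested, and 29 of these fell, 1 rose and 4 were not called in sgCdk10 (edgeR's quasi-likelihood test, Benjamini-Hochberg adjusted p under 0.05 over all genes tested). Over all 13442 genes tested, 42.5% were called in either direction, 20.4% lower and 22.1% higher. The median log2 fold change of the 34 genes was -0.54, against -0.003 over all genes tested. A fall of at least 0.5 on the log2 scale was called in 19 of the 34, and in 3.00% of all genes tested. CPM values (counts scaled to library size) did not overlap between the groups in 32 of the 34 genes, against 51.3% of all genes tested. Together the 38 genes held 7911, 7832 and 7838 CPM in the sgCdk10 libraries, against 10837, 10896 and 10675 CPM in the sgControl libraries. Their share of the mRNA counts was thus lower in each sgCdk10 library than in any sgControl library. In bulk RNA, fewer cells of a type and less RNA per cell cannot be told apart.

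Cdk10 itself had 204, 227 and 202 counts in the sgCdk10 libraries, against 381, 344 and 365 in the sgControl libraries, a log2 change of -0.82 (edgeR adjusted p = 8.4e-09, SE 0.08). Its exons overlap those of Gm45842 and Spata2l. Library totals ran from 17532202 to 19258309 counts. sgControl replicate 3 stood apart from the other libraries on the second principal component, which held 16.5% of the variance, and differed from its group more than other replicate pairs did (chi-square per degree of freedom 4.08 and 4.14, against 1.53 to 1.61). All 29 falls were called without that library too. Of 12 epithelial and colon markers only 4 were tested; Epcam had no counts and Cdh1 at most 1 count in any library. Their summed level was 63.1 to 64.6 CPM in sgCdk10 and 41.5 to 44.0 CPM in sgControl, mostly from Krt18 and Krt20. Krt18, Krt20 and Cdh17 rose, while Muc2 fell by 0.93 (edgeR adjusted p = 0.0305), with 7, 8 and 9 counts in sgCdk10 and 13, 16 and 16 in sgControl. The 8 fibroblast markers summed to 1569 to 1591 CPM in sgCdk10 and 1368 to 1519 CPM in sgControl, mostly from the collagen gene Col1a2, while Lum and Thy1 had no counts. Col1a1, Col1a2 and Pdgfra rose, Pdgfrb was not called, and Col3a1 fell by 0.41 (edgeR adjusted p = 0.00581). The part of these markers in the results below was not tested. The 10 leukocyte markers summed to 0.854 to 1.30 CPM in sgCdk10 and 1.02 to 1.10 CPM in sgControl, with Cd3e, Cd8a, Adgre1 and Ncr1 at 0 counts. The 6 endothelial markers summed to 0.773 to 0.935 CPM in sgCdk10 and 0.828 to 1.13 CPM in sgControl, with Erg at 0 counts.

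Promoters of the set were searched for the letters of the composite element that ATF4 binds with a C/EBP partner, written here as TGATGNAA. The search covered both strands of windows from 250 bases before to 50 bases after each RefSeq transcription start on GRCm38.p6. A window was listed for 32 of the 38 genes, and 10 of these 32 (31.2%) held the letters, against 4.51% of 27025 genes. The stricter form TGATGCAA, which is a subset, was found in 7 of the 32 (21.9%) and in 1.03% of the 27025. The table had no window for Eif4ebp1, Slc7a3, Slc7a5, Slc1a5, Aldh1l2 and Cth. The genes were chosen as members of the ATF4 pathway, so a higher share than over all genes follows in part from that choice. It is no result of the counts. These matches are descriptions of the sequence and no sites shown to be bound. The 250 bases before the start of 3 genes with the stricter form are shown on the strand of the gene, with the element in capitals (TTGCATCA is the same element read on the other strand). Chac1 lies at chr2:119350992-119351241 (plus strand), Nupr1 at chr7:126625471-126625720 (minus strand) and Slc7a11, with 2 copies facing each other, at chr3:50443614-50443863 (minus strand).
Chac1: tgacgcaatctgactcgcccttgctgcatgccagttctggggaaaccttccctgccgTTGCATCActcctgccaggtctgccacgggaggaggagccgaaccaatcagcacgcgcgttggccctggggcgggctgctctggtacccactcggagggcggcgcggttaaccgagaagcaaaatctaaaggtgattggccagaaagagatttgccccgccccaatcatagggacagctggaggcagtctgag
Nupr1: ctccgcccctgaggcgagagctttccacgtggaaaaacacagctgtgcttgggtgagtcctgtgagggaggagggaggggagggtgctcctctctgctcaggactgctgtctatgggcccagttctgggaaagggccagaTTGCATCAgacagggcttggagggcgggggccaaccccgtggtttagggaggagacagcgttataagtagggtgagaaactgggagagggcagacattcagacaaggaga
Slc7a11: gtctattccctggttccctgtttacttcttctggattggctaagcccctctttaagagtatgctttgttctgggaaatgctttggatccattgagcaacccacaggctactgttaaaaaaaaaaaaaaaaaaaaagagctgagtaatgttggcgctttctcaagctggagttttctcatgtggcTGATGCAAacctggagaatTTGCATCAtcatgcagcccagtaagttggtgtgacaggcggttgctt

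The other 7 genes with a match are shown as 30 bases around it, on the strand that reads TGATGNAA, so that the elements line up. Asns lies at chr6:7693214-7693243 (minus), Pck2 at chr14:55540152-55540181 (minus), Trib3 at chr2:152344028-152344057 (plus), Slc1a4 at chr11:20332699-20332728 (plus), Pycr1 at chr11:120643833-120643862 (minus), Vldlr at chr19:27216809-27216838 (minus) and Atf3 at chr1:191183425-191183454 (plus).
Asns: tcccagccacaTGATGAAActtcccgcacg
Pck2: ctgtaagatacTGATGTAActttgaaggct
Trib3: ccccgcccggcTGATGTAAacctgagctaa
Slc1a4: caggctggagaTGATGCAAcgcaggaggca
Pycr1: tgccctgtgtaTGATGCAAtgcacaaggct
Vldlr: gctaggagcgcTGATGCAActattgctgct
Atf3: cgcggacttggTGATGCAAgtgcgagaagg
Along the strand of the gene the element begins 193 bases before the start in Chac1, 110 in Nupr1, 23 in Asns and 4 in Slc1a4, and 15 bases after it in Trib3. Of these 10 genes, 8 fell in sgCdk10 (Trib3, Chac1, Slc7a11, Pck2, Nupr1, Slc1a4, Asns and Vldlr), Pycr1 was not called and Atf3 had no counts. Genes without the letters in the window fell as well, among them Ddit3 and Slc6a9. In the whole set 29 of the 34 tested genes fell, and 20.4% of all genes tested were called lower. The part of the element in these falls was not tested.

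Among the stress transcription factors, Atf4 mRNA was lower in sgCdk10 and so were Ddit3, Nupr1 and Cebpg. Atf4 (ENSMUSG00000042406, chromosome 15, 80255184 to 80257541, plus strand of GRCm38) had 724, 705 and 719 CPM in the sgCdk10 libraries, against 1053, 1059 and 1024 CPM in the sgControl libraries. The groups were well apart, with a log2 change of -0.55 (edgeR adjusted p = 1.7e-14, SE 0.03). ATF4 is controlled mainly at translation, and a count of its mRNA does not measure the protein. Ddit3 encodes CHOP, a C/EBP family factor that ATF4 induces under lasting stress. It lies on chromosome 10 (127290774 to 127296288, plus strand). Its level was 30.2, 25.3 and 27.5 CPM in sgCdk10, against 66.7, 67.1 and 55.1 CPM in sgControl, where replicate 3 was the lowest. Even that library had more Ddit3 than any sgCdk10 library, and the log2 change was -1.18 (edgeR adjusted p = 2.4e-05, SE 0.10). Exons of Ddit3 overlap those of Mars on the opposite strand, which fell by 0.21, and a second annotated Ddit3 entry had 0 counts. Nupr1, a small chromatin-associated stress protein, had 36.9, 39.3 and 37.5 CPM in sgCdk10, against 59.7, 58.8 and 58.5 CPM in sgControl. It fell by 0.64 on the log2 scale (edgeR adjusted p = 3.3e-11, SE 0.05).

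The C/EBP partners moved less. Cebpg, a dimer partner of ATF4, averaged 67.4 ± 0.102 CPM in sgCdk10 and 80.0 ± 3.15 CPM in sgControl (SD, n = 3), a log2 change of -0.25 (edgeR adjusted p = 1.6e-05, SE 0.04). Cebpb, which encodes a C/EBP factor of stress and inflammation, had 39.8, 37.2 and 42.5 CPM in sgCdk10, against 55.8, 53.2 and 42.5 CPM in sgControl. Replicate 3 of sgControl, at 42.54 CPM, lay just above the highest sgCdk10 library, at 42.50 CPM, and the difference of -0.34 on the log2 scale was not called (edgeR adjusted p = 0.0663, SE 0.12). Without that library the value was -0.45 and was called (edgeR adjusted p = 8.2e-11). Over all settings the adjusted p ran from 8.2e-11 to 0.182, and DESeq2 and limma-voom called the gene with all 6 libraries. Exons of Cebpb overlap Tmem189 on the opposite strand, which rose by 0.19 (edgeR adjusted p = 0.0183). Atf5, a related factor that ATF4 can induce, averaged 274 ± 6.53 CPM in sgCdk10 and 280 ± 7.88 CPM in sgControl (SD, n = 3), a difference of -0.03 on the log2 scale with an SE of 0.03 (edgeR adjusted p = 0.417). Its exons overlap Nup62 on the opposite strand, which fell by 0.29. Atf3, a stress-induced repressor of the same family, had 0 counts in all 6 libraries, where 3 counts correspond to 0.156 to 0.171 CPM.

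**Figure D1:**
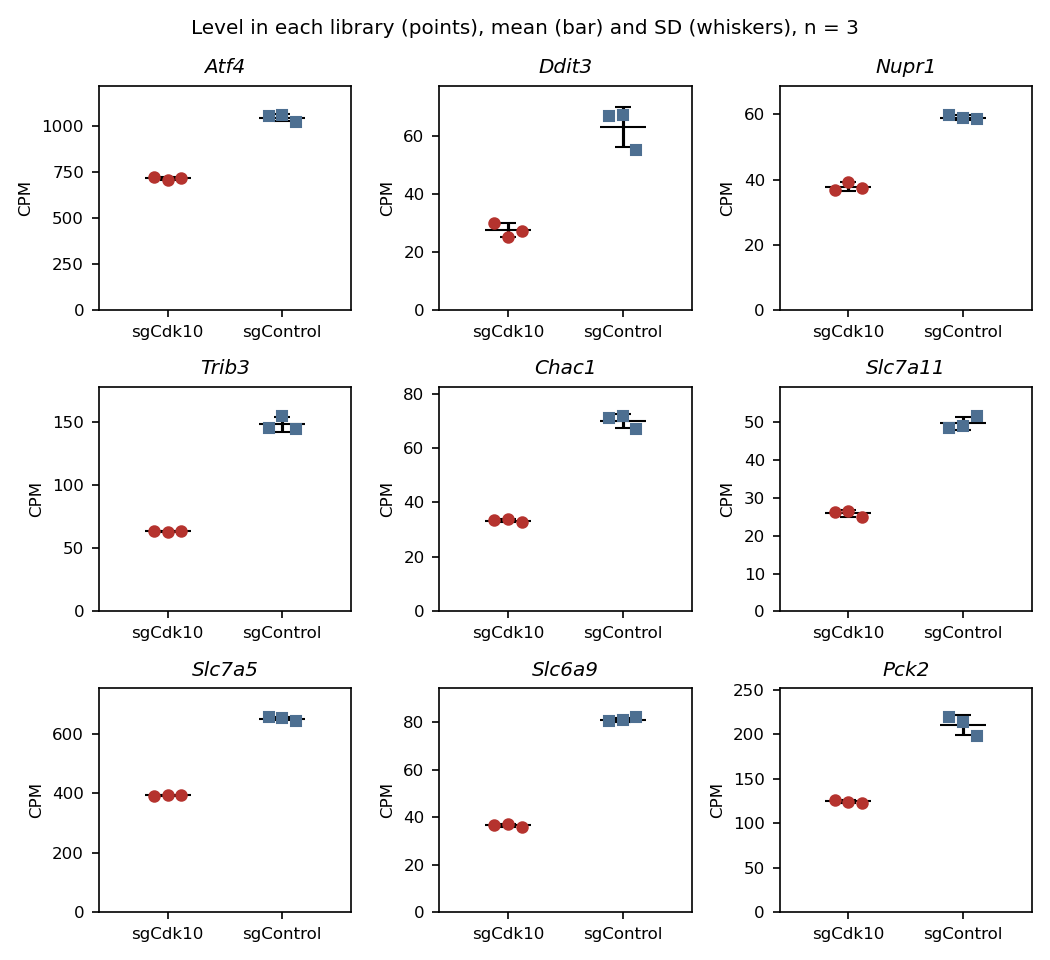
Level in CPM of 9 genes in each of the 3 sgCdk10 libraries (circles) and the 3 sgControl libraries (squares), with the mean as a bar and the SD as whiskers; each axis starts at 0. In all 9 genes every sgCdk10 point lies below every sgControl point, and the sgControl points of Ddit3 spread most relative to their mean.

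The feedback and effector genes held the largest fall of the set, that of Trib3. Trib3, a pseudokinase that ATF4 induces and that restrains ATF4 in turn, lies on chromosome 2 (152337422 to 152344032, minus strand). It had 63.9, 63.1 and 63.9 CPM in sgCdk10, against 146, 155 and 144 CPM in sgControl, a log2 change of -1.22 (edgeR adjusted p = 3.0e-18, SE 0.04). Its sgCdk10 libraries differed by less than 1 CPM. Chac1, an enzyme that breaks down glutathione and is induced through ATF4, lies on the same chromosome (119351229 to 119354381, plus strand). Chac1 had 33.5, 33.8 and 32.8 CPM in sgCdk10, against 71.0, 71.7 and 66.8 CPM in sgControl, and fell by 1.06 on the log2 scale (edgeR adjusted p = 3.4e-15, SE 0.05). In both genes the groups lay far apart relative to the spread within them. Sesn2, a leucine-binding inhibitor of the growth kinase mTORC1, had 58.6, 57.7 and 57.7 CPM in sgCdk10, against 95.7, 95.1 and 89.9 CPM in sgControl, a fall by 0.69 (edgeR adjusted p = 5.0e-13, SE 0.04). Stc2, a secreted glycoprotein of the stress response, was low in both groups. It had 6.91, 6.83 and 7.85 CPM in sgCdk10, against 11.6, 10.4 and 9.66 CPM in sgControl, a fall by 0.55 (edgeR adjusted p = 9.4e-05, SE 0.10).

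The rest of this group moved less or the other way. Eif4ebp1, a repressor of cap-dependent translation, averaged 260 ± 9.48 CPM in sgCdk10 and 336 ± 16.5 CPM in sgControl (SD, n = 3), a fall by 0.37 (edgeR adjusted p = 5.2e-08, SE 0.04). Vldlr, a lipoprotein receptor, averaged 240 ± 2.30 CPM in sgCdk10 and 261 ± 6.32 CPM in sgControl, a fall by 0.12 (edgeR adjusted p = 0.00184, SE 0.03). Ddit4, an inhibitor of mTORC1 that hypoxia and glucocorticoids also induce, was the 1 gene of the set that rose. It had 79.8, 79.0 and 84.3 CPM in sgCdk10, against 73.4, 76.4 and 72.3 CPM in sgControl, a log2 change of 0.13 (edgeR adjusted p = 0.00913, SE 0.04). That call was lost without sgCdk10 replicate 3 (0.10; edgeR adjusted p = 0.0831) and with DESeq2 (adjusted p = 0.0650); over all settings the highest adjusted p was 0.0831. Gdf15, a secreted stress cytokine, had 0, 2 and 3 counts in sgCdk10 and 3, 6 and 3 counts in sgControl, below the filter on low counts.

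Of the 9 amino acid transporters, 8 fell and Slc7a3 was not called, beside 20.4% called lower over all genes tested. The largest fall was that of Slc6a9, the glycine transporter GLYT1 (chromosome 4, 117834506 to 117875198, plus strand). It had 36.8, 37.1 and 35.7 CPM in sgCdk10, against 80.3, 80.8 and 82.0 CPM in sgControl, a log2 change of -1.15 (edgeR adjusted p = 1.5e-16, SE 0.04). Its exons overlap B4galt2 on the opposite strand, which was not called (-0.08; edgeR adjusted p = 0.200). Slc7a11 encodes xCT, the light chain of the cystine and glutamate exchanger (chromosome 3, 49892526 to 50443614, minus strand). Slc7a11 had 26.3, 26.6 and 24.9 CPM in sgCdk10, against 48.3, 48.9 and 51.5 CPM in sgControl, a fall by 0.94 (edgeR adjusted p = 2.9e-13, SE 0.05). Slc7a5 encodes LAT1, which carries leucine and other large neutral amino acids (chromosome 8, 121881150 to 121907694, minus strand). It had 392, 395 and 394 CPM in sgCdk10, against 655, 654 and 644 CPM in sgControl, a fall by 0.73 (edgeR adjusted p = 6.2e-17, SE 0.03). Slc3a2, the heavy chain that both xCT and LAT1 need at the membrane, averaged 330 ± 3.09 CPM in sgCdk10 and 453 ± 5.27 CPM in sgControl (SD, n = 3), a fall by 0.45 (edgeR adjusted p = 9.5e-13, SE 0.03).

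Slc7a1, a carrier of arginine and lysine, had 345, 353 and 337 CPM in sgCdk10, against 503, 512 and 519 CPM in sgControl, a fall by 0.57 (edgeR adjusted p = 3.1e-14, SE 0.03). Its paralog Slc7a3 was low in both groups, with 42, 33 and 40 counts in sgCdk10 and 34, 28 and 46 counts in sgControl (0.05, edgeR adjusted p = 0.859, SE 0.21). Slc1a4, an exchanger of alanine, serine and cysteine, had 62.4, 61.4 and 60.6 CPM in sgCdk10, against 92.3, 94.96 and 90.5 CPM in sgControl, a fall by 0.59 (edgeR adjusted p = 5.8e-12, SE 0.04). The glutamine carriers Slc1a5 and Slc38a2 fell less, each by 0.33 (edgeR adjusted p = 6.9e-10, SE 0.03 for Slc1a5 and 2.2e-10 for Slc38a2). Slc1a5 averaged 323 ± 3.93 CPM in sgCdk10 and 405 ± 7.18 CPM in sgControl, and Slc38a2 909 ± 14.3 CPM in sgCdk10 and 1139 ± 18.5 CPM in sgControl (SD, n = 3).

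All 7 enzymes of serine synthesis and mitochondrial folate metabolism fell, by 0.23 to 0.61 on the log2 scale. Over all genes tested, 20.4% were called lower. Phgdh, Psat1 and Psph turn a glycolytic intermediate into serine in that order. Phgdh had 649.6, 630.4 and 634.9 CPM in sgCdk10, against 751.4, 774.2 and 714.9 CPM in sgControl, a fall by 0.23 (edgeR adjusted p = 7.0e-07, SE 0.03). Psat1 averaged 768 ± 14.0 CPM in sgCdk10 and 1033 ± 11.6 CPM in sgControl, a fall by 0.43 (edgeR adjusted p = 1.5e-12, SE 0.03). The last enzyme, Psph, had 67.3, 67.1 and 67.8 CPM in sgCdk10, against 103, 101 and 102 CPM in sgControl, a fall by 0.60 (edgeR adjusted p = 1.2e-12, SE 0.04). The fold changes were thus larger along the order of the pathway, with the first enzyme moving least. Exons of Psph overlap Cct6a on the opposite strand, which was not called (-0.06; edgeR adjusted p = 0.0919).

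In mitochondria, Shmt2 splits serine into glycine and a carbon unit on folate (chromosome 10, 127517123 to 127522444, minus strand). It had 560, 547 and 548 CPM in sgCdk10, against 852, 862 and 810 CPM in sgControl, a fall by 0.61 (edgeR adjusted p = 8.4e-15, SE 0.03). Mthfd2, which oxidises that unit, had 245, 244 and 236 CPM in sgCdk10, against 353, 357 and 346 CPM in sgControl, a fall by 0.54 (edgeR adjusted p = 1.3e-13, SE 0.03). Exons of Shmt2 overlap Ndufa4l2 on the opposite strand, which averaged 12.3 counts in sgCdk10 and 4 counts in sgControl. The enzymes further on moved less. Mthfd1l, which releases the unit as formate, averaged 142 ± 1.49 CPM in sgCdk10 and 175 ± 3.27 CPM in sgControl, a fall by 0.30 (edgeR adjusted p = 2.2e-08, SE 0.03). Aldh1l2, which burns it to carbon dioxide, averaged 212 ± 0.432 CPM in sgCdk10 and 260 ± 3.71 CPM in sgControl, a fall by 0.29 (edgeR adjusted p = 9.9e-09, SE 0.03).

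Of the 7 remaining enzymes 5 were tested, and 4 of them fell, beside 20.4% called lower over all genes tested. Pck2, which makes phosphoenolpyruvate in mitochondria, had 126, 124 and 123 CPM in sgCdk10, against 219, 214 and 198 CPM in sgControl, a fall by 0.75 (edgeR adjusted p = 2.4e-14, SE 0.04). Gpt2, the mitochondrial alanine transaminase, had 86.5, 90.3 and 87.3 CPM in sgCdk10, against 139, 143 and 145 CPM in sgControl, a fall by 0.69 (edgeR adjusted p = 3.1e-14, SE 0.03). Asns, asparagine synthetase and a long-studied ATF4 target, had 452, 472 and 472 CPM in sgCdk10, against 644, 658 and 676 CPM in sgControl, a fall by 0.50 (edgeR adjusted p = 3.4e-13, SE 0.03). In proline synthesis the first enzyme fell, and the last was not called. Aldh18a1, the first, had 220, 214 and 214 CPM in sgCdk10, against 309, 320 and 305 CPM in sgControl, a fall by 0.53 (edgeR adjusted p = 3.3e-13, SE 0.03). Pycr1, the last, had 12.9, 10.6 and 12.2 CPM in sgCdk10, against 13.6, 13.2 and 14.2 CPM in sgControl (-0.20, edgeR adjusted p = 0.0603, SE 0.08). Over all settings the adjusted p of Pycr1 ran from 0.0289 to 0.306, and without sgCdk10 replicate 1 it was called (edgeR adjusted p = 0.0380). Cth and Cbs, which make cysteine from homocysteine, had at most 2 counts in any library.

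**Figure D2:**
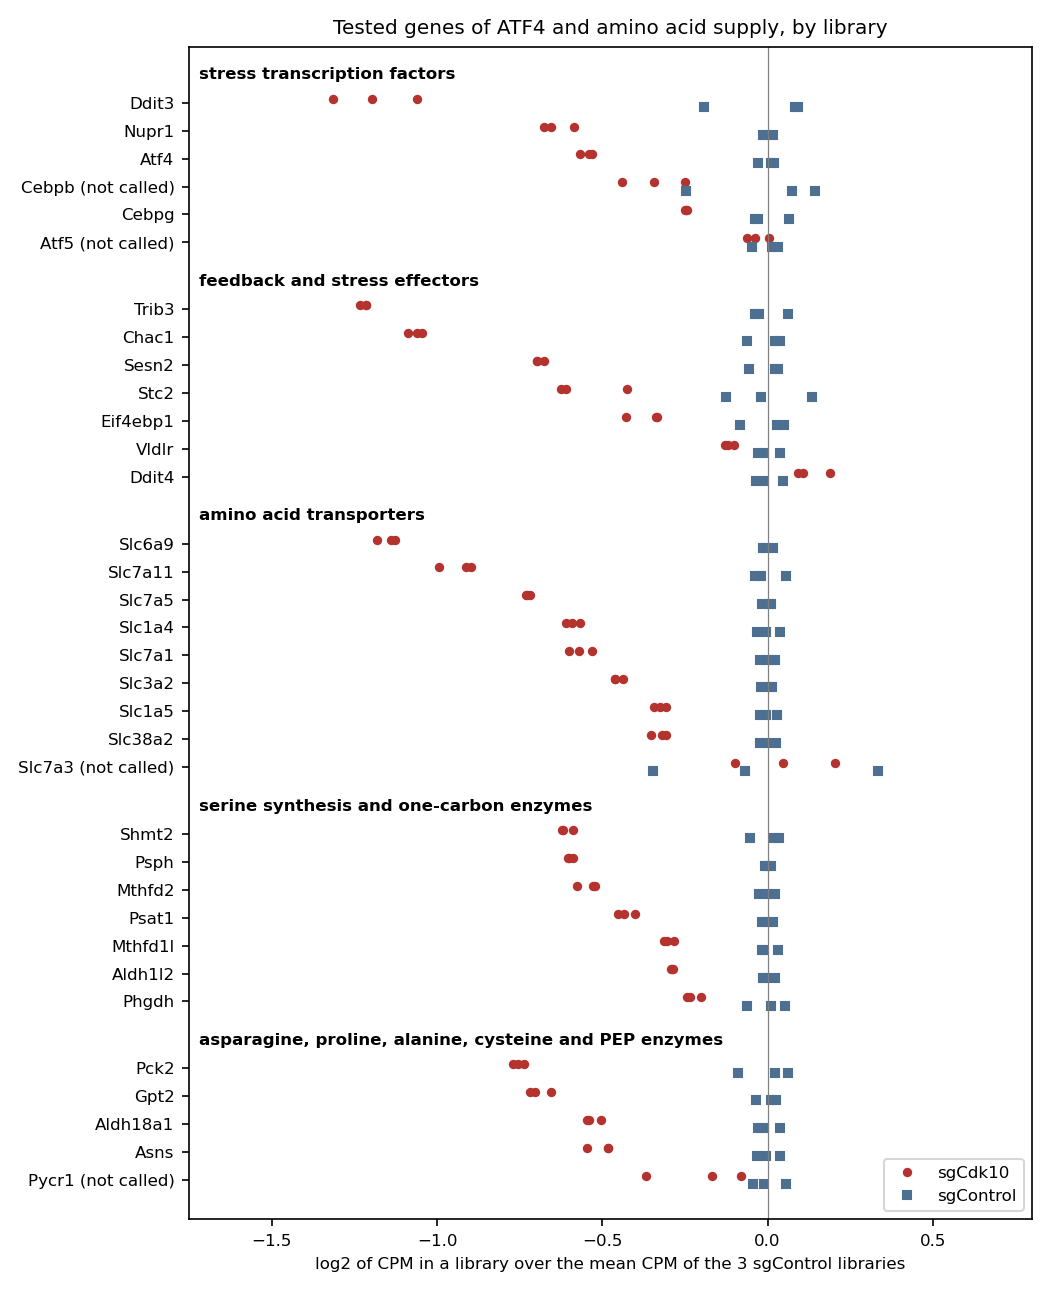
Each of the 34 tested genes in each library, as the log2 of its CPM over the mean CPM of the 3 sgControl libraries (horizontal axis), grouped by role; circles are sgCdk10 and squares sgControl. The sgCdk10 circles lie left of the sgControl squares in most rows, farthest for Trib3 (-1.22), Ddit3 and Slc6a9, while Ddit4 lies to the right, Atf5 and Slc7a3 overlap between the groups and Cebpb is barely apart.

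Levels per length put the changes in proportion. The length used joins the exons of all annotated transcripts of a gene. A gene expressed as a shorter transcript then gets too low a level, so the order is approximate. Per kilobase of merged exons, Atf4 had the highest level of the 34 tested genes in both groups, 304 CPM per kb in sgCdk10 and 443 CPM per kb in sgControl. Phgdh followed with 257 CPM per kb in sgCdk10 and 300 CPM per kb in sgControl. Psat1, Shmt2 and Asns came next in sgCdk10, between 170 and 180 CPM per kb. In sgControl these stood between 241 and 271 CPM per kb, and Shmt2 was then the highest of the 3. Slc7a5 had 106 CPM per kb in sgCdk10, below Atf5 at 137, while in sgControl Slc7a5 had 176 CPM per kb and stood above Atf5 at 141. The genes with the largest fold changes were not the most abundant: Trib3 had 29.9 CPM per kb in sgCdk10 and 69.8 in sgControl, and Slc6a9 had 7.11 in sgCdk10 and 15.8 in sgControl. By role, the summed level of the transporters was 2427 ± 28.2 CPM in sgCdk10 and 3385 ± 9.55 CPM in sgControl, and that of the serine and folate enzymes 2621 ± 33.3 CPM in sgCdk10 and 3510 ± 56.5 CPM in sgControl (SD, n = 3).

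Ratios of gene pairs within a library do not depend on how libraries are scaled. The pairs were chosen with earlier results known, and their ratios are given as a description. In each of the 10 pairs computed, of which 9 are given here, the log2 ratio of counts did not overlap between the groups (exact two-sided permutation test, p = 0.10 for each pair and after adjustment over the 10, the smallest p that 3 against 3 libraries allow, so the test cannot pass 0.05). The share of other gene pairs whose ratios do not overlap was not computed. For single genes, CPM did not overlap between the groups in 51.3% of all genes tested. Slc7a5 over Slc3a2, light chain over heavy chain, was 0.23, 0.27 and 0.26 in sgCdk10, against 0.53, 0.52 and 0.53 in sgControl. Slc7a11 over Slc3a2 was -3.66, -3.63 and -3.72 in sgCdk10, against -3.23, -3.22 and -3.12 in sgControl. Both light chains had lower ratios to their shared partner in every sgCdk10 library than in any sgControl library. In both pairs of a mitochondrial over a cytosolic enzyme the ratio was lower in sgCdk10: Shmt2 over Shmt1 averaged 3.42 ± 0.05 in sgCdk10 and 3.92 ± 0.06 in sgControl, and Mthfd2 over Mthfd1 0.51 ± 0.04 in sgCdk10 and 0.94 ± 0.02 in sgControl (SD, n = 3). These 2 pairs do not stand for all such enzymes: Mthfd2l, the mitochondrial paralog of Mthfd2, named after its values were seen, had 567, 492 and 593 counts in sgCdk10, against 422, 411 and 439 in sgControl, and rose by 0.34 (edgeR adjusted p = 4.5e-05). Psat1 over Phgdh averaged 0.27 in sgCdk10 and 0.47 in sgControl. The differences in the log2 ratio to Atf4 were -0.67 for Trib3, -0.52 for Chac1 and -0.64 for Ddit3, which are among the genes with the largest falls. Slc7a5 over its paralog Slc7a6 differed by -0.81.

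**Figure D3:**
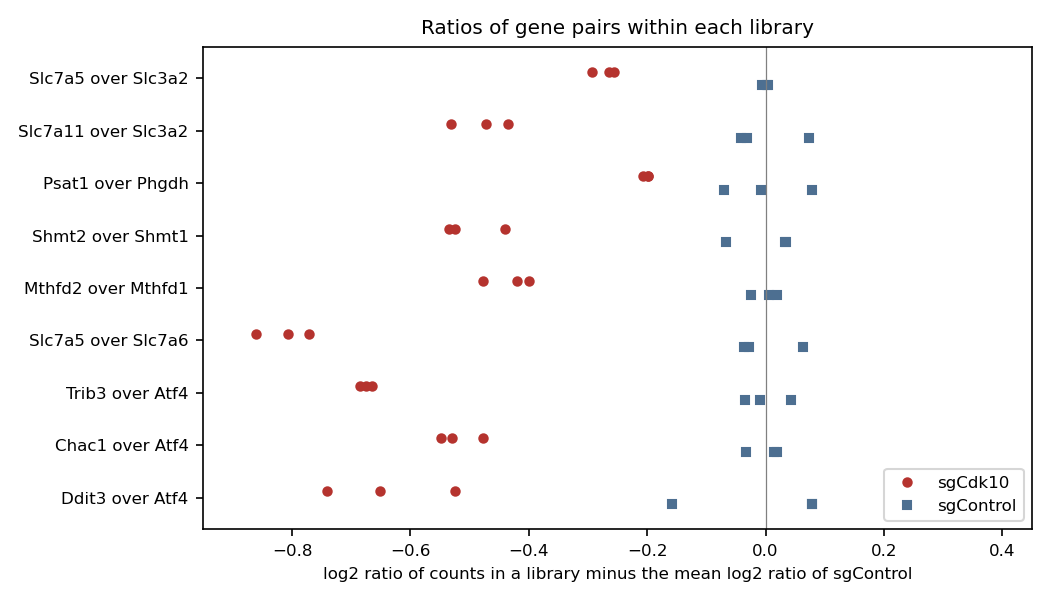
Log2 ratio of the counts of 2 genes in each library, minus the mean log2 ratio of the 3 sgControl libraries (horizontal axis), for 9 pairs; circles are sgCdk10 and squares sgControl. In every pair the circles lie left of the squares, farthest for Slc7a5 over Slc7a6 (-0.81) and nearest for Psat1 over Phgdh (-0.20).

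The 7 lists of genes outside the set had medians of -0.35 to 0.08 on the log2 scale, against -0.54 in the set. Single genes in these lists fell by more than the median of the set, and others rose. Over all genes tested, 20.4% were called lower and 22.1% higher, to be set beside the counts of calls in each list. Among 17 genes of the eIF2 kinases, eIF2 itself and its phosphatase, 8 fell and 3 rose, with a median of -0.06 on the log2 scale. Ppp1r15a, the stress-induced phosphatase subunit GADD34 that reverses eIF2 phosphorylation, fell by 0.75, and Impact, an inhibitor of the kinase GCN2, by 0.61 (edgeR adjusted p = 2.2e-12 and 3.3e-13). Eif2s2 fell by 0.25 and Ppp1ca by 0.17. Eif2ak3, the gene of the endoplasmic reticulum kinase PERK, named after its values were seen, rose by 0.28 (edgeR adjusted p = 0.00111). Phosphorylation of eIF2 was not measured here. Of 17 other genes reported as ATF4 targets 14 were tested, of which 9 fell and 3 rose, with a median of -0.35. Gadd45a, a growth arrest gene, fell by 0.85, the autophagy receptor gene Sqstm1 by 0.44 and Herpud1, of protein disposal at the endoplasmic reticulum, by 0.39. Ero1l, an oxidase of the endoplasmic reticulum, rose by 0.67; Vegfa and Tnfrsf10b, named after their values were seen, rose by 0.56 and 0.38. Ero1l and Vegfa are also known targets of hypoxia signalling, whose part in these rises was not tested. Adm2, below the filter on low counts, had 1, 1 and 2 counts in sgCdk10 and 11, 9 and 8 counts in sgControl.

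Of 20 cytosolic aminoacyl-tRNA synthetase genes, whose products load amino acids onto tRNA, 14 fell and 2 rose, with a median of -0.27. Wars, Lars, Gars and Aars fell by 0.42 to 0.49, within the range of the falls called in the set (0.12 for Vldlr to 1.22 for Trib3). Of 19 other amino acid transporters of the plasma membrane only 6 were tested, of which Slc6a6, Slc36a1 and Slc36a4 fell by 0.26, 0.17 and 0.15 and Slc38a4 rose by 0.40. Of 20 other genes of the folate, glycine and methionine cycles 18 were tested, of which 9 fell and 2 rose, with a median of -0.09. Mat2a, which makes S-adenosylmethionine, fell by 0.40 and Ahcy by 0.19. The cytosolic enzymes Shmt1 and Mthfd1 each fell by 0.11. The genes that rose, both named after their values were seen, were Mthfd2l by 0.34 and Mtrr, of methionine synthase upkeep, by 0.29 (edgeR adjusted p = 4.5e-05 and 6.3e-05). Of 17 other enzymes of glutamate, aspartate, proline and branched-chain amino acids 15 were tested, of which 3 fell and 4 rose, with a median of 0.08. These counts are near the shares over all genes tested, 20.4% called lower and 22.1% higher. Bcat1, of branched-chain amino acid breakdown, fell by 0.39, Got1 by 0.25 and Got2, named after its values were seen, by 0.15, while Asl rose by 0.36.

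Paralogs of the set's genes moved in both directions. Of 18 listed 11 were tested, of which 5 rose and 3 fell, with a median of 0.08. Over all genes tested, 22.1% were called higher and 20.4% lower. Trib1 rose by 0.73 (edgeR adjusted p = 1.7e-11, SE 0.05) and Trib2 by 0.51 (edgeR adjusted p = 8.2e-08, SE 0.06), whereas Trib3 fell by 1.22. Trib1 had 828, 818 and 854 counts in sgCdk10, against 487, 487 and 498 in sgControl. Sesn1 fell by 0.29 and Atf6, a factor of another branch of the unfolded protein response, by 0.14. The third gene that fell, Eif4ebp3, named after its values were seen, had 4, 8 and 6 counts in sgCdk10, against 17, 11 and 17 in sgControl (-1.34; edgeR adjusted p = 0.00689). Chac2, named after its values were seen, had 245, 227 and 257 counts in sgCdk10, against 256, 264 and 237 in sgControl, and was not called (edgeR adjusted p = 0.362).

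**Figure D4:**
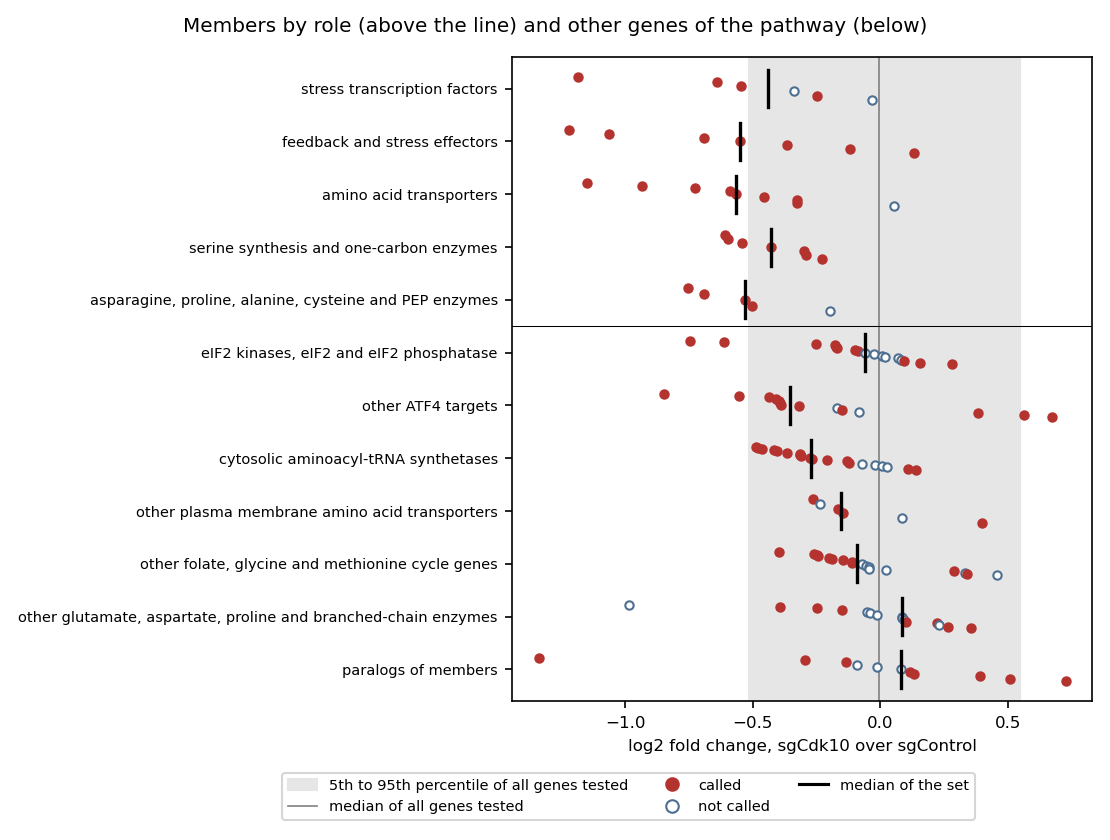
Log2 fold change of sgCdk10 over sgControl (horizontal axis) for each tested gene of the set by role (above the line) and of 7 other lists of the pathway (below); filled points were called by edgeR, open points were not, and the bar is the median of the list. The grey band spans the 5th to the 95th percentile of all genes tested (-0.52 to 0.55); the medians of the 5 roles lie between -0.57 and -0.43, and those of the 7 other lists between -0.35 and 0.08.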

How the data were processed

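RNA of 3 sgCdk10 and 3 sgControl libraries of CT26 cells was compared. Groups and replicate numbers are those of the library titles. The authors deposited raw counts per Ensembl gene without normalization. The tools and build are listed, per the submitters' processing notes, as featureCounts 2.0.3, HISAT2 2.2.1 and DESeq2 1.40.2 with mm10, and with neither annotation release nor strand setting. Reads of overlapping genes (9 of the 38 genes overlap another gene's exons), of antisense partners and of processed pseudogenes therefore cannot be told apart with certainty.

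Symbols, coordinates and merged exon lengths are from GENCODE M21 (GRCm38), in which 52081 of 57010 identifiers had a symbol. Genes were kept by filterByExpr (minimum count 10, minimum total 15), which left 13442. Libraries were scaled by TMM factors and tested with edgeR 4.0.16, quasi-likelihood with robust dispersions and group as the only term; Benjamini-Hochberg adjustment ran over all tested genes, threshold 0.05. A positive log2 fold change means higher in sgCdk10, and the SE was derived from the F statistic. CPM values were computed from counts and TMM-scaled totals. Promoter windows are RefSeq's on GRCm38.p6. Scripts were tested on simulated counts.

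The 38 genes and the other lists were chosen with earlier results of these data known. Every gene of the set is named; those called with at least 0.5 on the log2 scale, and Atf4, are given in every library, and from each other list the 4 genes with the smallest p, except a few results not reported here. The labels do not say whether replicates were grown separately; the p-values then reflect only the spread among these libraries, which may be technical. The 3-count floor covers counting error only. Alternatives were DESeq2-type size factors, DESeq2 1.42.0, limma-voom (limma 3.58.1), other filters, non-robust dispersions, a replicate block and leaving out each library; a GC and length correction was added after seeing the data.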

Additional observations from a re-analysis of the deposited data

How the results depend on the processing

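All 29 falls were called, in the same direction, under each of the 15 settings run. With all 6 libraries 30 to 33 of the genes were called, 30 in the main fit. The count of genes that rose was 1, and 0 with DESeq2 and 0 to 1 with a library left out, where Ddit4 was lost without sgCdk10 replicate 3. Slc7a3, not called in any setting, was 0.05, and -0.02 without sgCdk10 replicate 1 and -0.09 without sgControl replicate 2; with a library left out it ran from -0.0912 to 0.253, and the cause was not tested. Calls of Cebpb, Atf5 and Pycr1 depended on the setting: Cebpb was called in 6 of the 15, Atf5 in 2 (without sgControl replicate 3, adjusted p = 0.0475, and with the GC and length correction, adjusted p = 0.00209, up to 0.769 in the others) and Pycr1 in 2. Over all genes the count of calls was 5717, 4043 with DESeq2 and 4791 to 6056 with a library left out; Cdk10 lay between -0.90 and -0.75. The GC and length correction gave 2706 higher and 3240 lower calls, against 2970 and 2747. The differences in log2 ratio of the 10 pairs kept their sign with 1 count added to each gene and with each library left out. The replicate block gave 5481 calls over all genes, 30 of the set and -0.82 for Cdk10, and changed no call of a gene of the set. Same-numbered libraries deviated from their group means with correlations of 0.03, -0.06 and -0.10, so the numbers were not taken to pair the libraries. Atf3 had no counts. With no filter, Gdf15, Cth and Cbs were tested by edgeR and not called (adjusted p = 0.351, 0.990 and 0.698). These genes had 6 counts or fewer in any library, and whether a difference could be detected at such counts was not tested.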
